A study of Apocynum venetum with 18 samples.

Results

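Among the transcripts measured in leaves of Apocynum venetum during exposure to salt, 10 were at or near 0 in every library sampled at 0 h and well detected in every library sampled at 48 h. They were chosen by their measured values: under 0.1 CPM, counts scaled to a library's size, in each of the 3 libraries at 0 h, at least 10 CPM in each of the 3 at 48 h, and a mean below 700 CPM. They are 10 of 45222 assembled transcripts that passed a filter on low counts (0.0221%) and of 53545 in all. The values at 0 h and 48 h are therefore given as a description, without a test. Tests are reported only among the times from 2 h to 24 h, whose libraries did not enter either threshold. The filter on low counts, the scaling and the mean used all 18 libraries.

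The plant is a salt-tolerant shrub used for fibre and medicine. Wild seedlings stood in nutrient solution with 300 mmol/L NaCl, and leaf RNA was sequenced at the start (0 h), early on (2 h and 6 h), then at 12 h, and on the following days (24 h, 48 h), with 3 libraries per time. All 18 libraries carry the salt label, 0 h included. An unsalted group appears in the design text but in no label, and the labels do not say whether the 0 h plants had been in salt, so time in salt cannot be told apart from handling or plant age. No label ties a library to its own plant, and the p-values then measure only the spread between these libraries, which may be technical. The leaf label could not be checked against marker genes, because the transcripts are known here only by ID.

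Salt reaches a leaf first as an osmotic stress, when water becomes harder to take up, and later as a build-up of sodium and chloride ions. Plants meet both with changes in transcription, part of them through the hormone abscisic acid, and with ion transport, compatible solutes and protective proteins. A transcript that is undetected at the outset and abundant later can be new transcription of a gene, or another isoform of a gene already in use. In RNA from whole leaves, fewer cells of a type and less RNA per cell cannot be told apart.

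Each transcript is known here by the ID of a Trinity assembly, which is built from the reads without a genome. The DN and c numbers name a component of overlapping contigs, g a putative gene within it and i an isoform, and a final digit was added to each ID. The ID column is headed gene_id, so what is called a transcript here may stand for a putative gene. Whether the deposited annotation belongs to these IDs is in doubt and it was not used, nor were sequences, so none of the 10 is given a name or a function. Their lengths, from the ratio of count to FPKM, ran from 608 to 4966 nucleotides with a median of 1354, against 1009 for the transcripts that passed the filter.

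The libraries held 17933939 to 24731213 estimated counts. After scaling, 1 count corresponded to 0.0401 to 0.0490 CPM in the 0 h libraries, so that the limit of 0.1 CPM allowed at most 2 counts in a library. A library without a count at 0 h still allows up to 0.120 to 0.147 CPM, taking 3 counts as the upper limit for a count of 0. Between 0 h and 2 h, 1 library of each time had an expression profile closer to the other time than to its own. That labelled 0 h replicate 2 had a mean Spearman correlation across transcripts of 0.886 with the other 0 h libraries and 0.917 with those of 2 h, and that labelled 2 h replicate 2 had 0.892 with its own time and 0.910 with 0 h.

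Together the 10 transcripts gave 15 counts over the 3 libraries of 0 h. The totals of 2 h and 6 h were 162 and 149 counts, that of 12 h was 1472, and those of 24 h and 48 h were 24962 and 50091. At 0 h, 3 of them had no count and the other 7 had 1 to 4 counts over the group. Their summed level at 0 h was 0.208 CPM ± 0.137 (SD, n = 3), against 2.17 CPM ± 1.39 at 2 h and nearly the same at 6 h, 2.10 CPM ± 1.18. By 12 h it stood at 22.3 CPM ± 10.9, a day into the course at 423 CPM ± 61.2, and in the 48 h libraries at 875 CPM ± 142. The low counts at 2 h were unevenly spread over libraries, with 22, 96 and 44 counts in replicates 1, 2 and 3. Replicate 2 is the library whose profile was closer to 0 h. In it TRINITY_DN15648_c0_g1_i2_7 stood at 1.68 CPM, TRINITY_DN21463_c0_g1_i1_7 at 0.918, TRINITY_DN15336_c0_g1_i10_5 at 0.803 and TRINITY_DN14620_c0_g1_i1_6 at 0.115. These are over the limit of 0.1 CPM set for 0 h libraries, and the rest were under it. Whether the time label of this library is right was not tested. At the other end of the course, the sums of the 3 libraries at 48 h lay between 769 and 1036 CPM, above the highest sum at 24 h, 477 CPM. A single transcript, the longest of the 10, accounted for much of this level in CPM, which is not corrected for length. Without it the sum was 109 CPM ± 10.4 at 24 h and 393 ± 57.3 at 48 h.

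**Figure D1:**
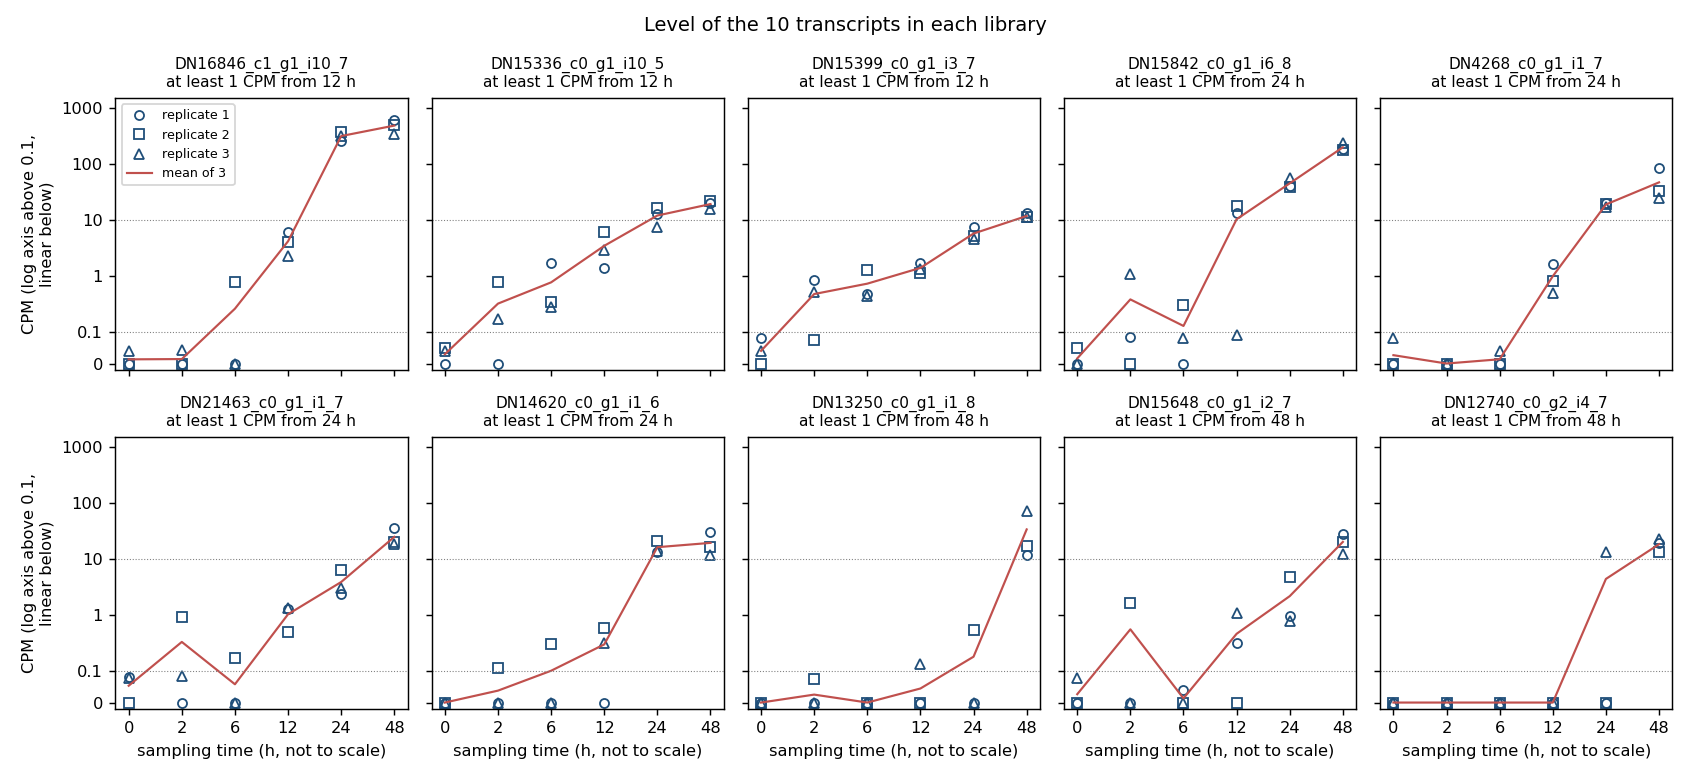
Level of each of the 10 transcripts in CPM (vertical axis, logarithmic above 0.1 and linear below) against sampling time in hours (horizontal axis, not to scale). Symbols are single libraries, lines join the means of 3, and dotted lines mark 0.1 and 10 CPM. Panel titles give the first time with at least 1 CPM in all 3 libraries, which is 12 h, 24 h or 48 h, and a mean can rise before it.

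The transcripts differed in when they appeared. Presence was taken as at least 1 CPM in each of the 3 libraries of a time. By this description 0 of 10 were present at 2 h or at 6 h, 3 were first present at 12 h, 4 at 24 h and 3 at 48 h. Since the classes were made from the levels, no difference between them was tested.

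The first of the 12 h class, TRINITY_DN16846_c1_g1_i10_7, of 4966 nucleotides, had the highest mean CPM of the 10 at 48 h, a scale that is not corrected for its length. It had 1 count at 0 h and 1 at 2 h, and its level at 6 h was 0, 0.792 and 0 CPM in replicates 1, 2 and 3. At 12 h it stood at 6.24, 4.04 and 2.30 CPM, at 24 h at 259, 365 and 319 CPM, and at 48 h at 612, 495 and 341 CPM. Each step from 6 h to 24 h thus separated all libraries of the later time from all of the earlier one, whereas the 24 h and 48 h libraries overlapped. From 2 h to 24 h it rose 22905-fold, the single count at 2 h giving exact Poisson bounds (95%) of 4111 and 904700 (edgeR quasi-likelihood adjusted p = 0.00011). Between 12 h and 24 h alone its log2 change was 6.23 (SE 0.80, edgeR adjusted p = 0.0053). At 48 h it made up 54.6% of the summed CPM of the 10, a share that is likewise not corrected for length.

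TRINITY_DN15336_c0_g1_i10_5, of 2625 nucleotides, came up gradually. Its levels were 0, 0.803 and 0.172 CPM at 2 h, 1.69, 0.352 and 0.287 CPM at 6 h, and 1.41, 6.04 and 2.97 CPM at 12 h. It reached 12.6, 16.1 and 7.46 CPM at 24 h and 20.4, 21.5 and 15.9 CPM at 48 h. The 6 h and 12 h libraries overlapped, as did the 2 h and 6 h libraries, while every 24 h library was above every earlier one. From 2 h to 24 h it rose by 5.16 on the log2 scale (SE 1.06, edgeR adjusted p = 0.0059), and none of the 3 shorter steps was called.

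The third of this class, TRINITY_DN15399_c0_g1_i3_7, of 1809 nucleotides, had the most even replicates at 48 h, where the highest library was 1.19 times the lowest. It stood at 0.852, 0.0765 and 0.515 CPM at 2 h, at 0.483, 1.28 and 0.451 CPM at 6 h and at 1.73, 1.14 and 1.35 CPM at 12 h. Levels of 7.45, 5.29 and 4.52 CPM followed at 24 h and 13.2, 11.1 and 11.1 CPM at 48 h. It was therefore detected in every library from 2 h on, at a low level, and its 24 h libraries were all above the earlier ones. Its log2 change from 2 h to 24 h was 3.57 (SE 0.70, edgeR adjusted p = 0.0045). This transcript and 3 others, TRINITY_DN21463_c0_g1_i1_7, TRINITY_DN14620_c0_g1_i1_6 and TRINITY_DN12740_c0_g2_i4_7, fall outside the naming rule and were named after their values were seen, so that all 10 are accounted for.

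In the class first present at 24 h, TRINITY_DN15842_c0_g1_i6_8, of 2124 nucleotides, had the highest mean CPM at 48 h. It had 1 count over the 0 h libraries and 0.0852, 0 and 1.07 CPM at 2 h. At 12 h it stood at 13.2 and 17.8 CPM in replicates 1 and 2 but at 0.0901 CPM in replicate 3. Levels were 39.9, 38.6 and 56.9 CPM at 24 h and 182, 174 and 237 CPM at 48 h. The 12 h library of replicate 3 was thus within the range of the earlier times, which placed the transcript in the 24 h class. It rose by 6.88 on the log2 scale from 2 h to 24 h (SE 1.49, edgeR adjusted p = 0.0078), and no shorter step was called.

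TRINITY_DN4268_c0_g1_i1_7, of 861 nucleotides, had 2 counts over the 0 h libraries, 0 at 2 h and 1 at 6 h. It stood at 1.68, 0.818 and 0.496 CPM at 12 h, at 20.5, 19.0 and 17.4 CPM at 24 h and at 83.6, 32.4 and 25 CPM at 48 h. The 24 h libraries were close together and apart from all others, while those of 48 h ranged over 3.34-fold. From 2 h to 24 h it rose at least 461-fold, taking a floor of 3 counts over the 2 h group (edgeR adjusted p = 0.00012). It was also called between 12 h and 24 h, with a log2 change of 4.24 (SE 0.52, edgeR adjusted p = 0.006).

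TRINITY_DN14620_c0_g1_i1_6, of 851 nucleotides, had no count at 0 h. It was seen only in replicate 2 at 2 h and 6 h, at 0.115 and 0.308 CPM, and at 0, 0.591 and 0.316 CPM at 12 h. At 24 h its levels were 13.6, 21.2 and 14.1 CPM, and at 48 h 30.1, 16.5 and 11.8 CPM. These 2 times overlapped, and of the 10 transcripts it had the smallest ratio of the 48 h mean to the 24 h mean, 1.19. It rose 396-fold from 2 h to 24 h, the 3 counts at 2 h giving exact Poisson bounds (95%) of 136 and 1922 (edgeR adjusted p = 0.0014), and by 5.73 on the log2 scale from 12 h to 24 h (SE 1.11, edgeR adjusted p = 0.017).

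The last of this class, TRINITY_DN21463_c0_g1_i1_7, was the shortest of the 10, at 608 nucleotides. Its levels were 0, 0.918 and 0.0859 CPM at 2 h, 1.27, 0.50 and 1.35 CPM at 12 h, 2.38, 6.33 and 3.02 CPM at 24 h and 35.8, 20.3 and 18.6 CPM at 48 h. The 24 h libraries were all above those of 2 h, but the log2 change of 3.50 (SE 1.18) was not called (edgeR adjusted p = 0.056). The call depended on the setting. It was made without 2 h replicate 2, with all 18 libraries, with a block for the replicate number, with DESeq2 and with limma. In the other alternatives the transcript was not called or not tested. The largest part of its level came after 24 h, with a mean at 48 h 6.37 times that at 24 h.

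Of the 3 transcripts first present in all libraries at 48 h, TRINITY_DN13250_c0_g1_i1_8, of 788 nucleotides, had the highest mean CPM at 48 h, through 1 library. It had no count at 0 h or 6 h, 2 counts in the 2 h libraries, 3 in those of 12 h and 9 in those of 24 h. At 48 h it stood at 11.8, 17.0 and 72.6 CPM, so that the highest library was 6.15 times the lowest, the widest spread among the 10. In replicates 1 and 2 it was below TRINITY_DN15648_c0_g1_i2_7, described next. Its 24 h counts all came from replicate 2, and its level from 2 h to 24 h was not called changed (log2 change 2.48, SE 1.96, edgeR adjusted p = 0.41).

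TRINITY_DN15648_c0_g1_i2_7, of 2638 nucleotides, stood at 0.972, 4.81 and 0.787 CPM at 24 h and at 28.1, 20.3 and 12.4 CPM at 48 h. At 2 h all 44 of its counts lay in replicate 2, at 1.68 CPM, and at 6 h it had 1 count. Its 2 h and 24 h libraries therefore overlapped, and the log2 change between these times was 1.93 (SE 1.57, edgeR adjusted p = 0.42). Without the library labelled 2 h replicate 2, which resembled the 0 h libraries, the change was 8.60 and was called (edgeR adjusted p = 0.031). The result for this transcript was thus set by 1 library.

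TRINITY_DN12740_c0_g2_i4_7, of 899 nucleotides, had the sharpest presence pattern of the 10. No count was found in any of the 12 libraries from 0 h to 12 h or in replicates 1 and 2 at 24 h, while replicate 3 at 24 h held 321 counts, 13.3 CPM. At 48 h the levels were 19.5, 13.1 and 22.6 CPM. The single 24 h library was thus within the range of the 48 h libraries and the other two were at 0, and the change from 2 h to 24 h was not called (edgeR adjusted p = 0.12).

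For levels set between transcripts, FPKM, which is corrected for length, is the better scale. At 48 h the highest were TRINITY_DN16846_c1_g1_i10_7 at 87.0 FPKM ± 18.9 (SD, n = 3) and TRINITY_DN15842_c0_g1_i6_8 at 85.0 ± 20.3, which did not differ beyond their spread. In replicate 3 the latter was the higher, at 108 against 66.6 FPKM. TRINITY_DN4268_c0_g1_i1_7 followed at 48.1 FPKM ± 29.5, TRINITY_DN13250_c0_g1_i1_8 at 40.5 ± 42.5 and TRINITY_DN21463_c0_g1_i1_7 at 36.6 ± 11.4, with SDs larger than the gaps between neighbours. The lowest was TRINITY_DN15399_c0_g1_i3_7 at 5.90 FPKM ± 0.294. By rank of mean FPKM at 48 h the 10 transcripts stood above 76.5% to 98.2% of all 53545, TRINITY_DN16846_c1_g1_i10_7 being at rank 942. At 24 h that transcript was already at rank 1411, whereas TRINITY_DN13250_c0_g1_i1_8 was above only 13% of all transcripts.

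Across the times that did not choose them, 6 of the 10 transcripts were called higher at 24 h than at 2 h, beside 8.02% of all transcripts tested, and none was called lower, beside 8.28%. A call needed a Benjamini-Hochberg adjusted p under 0.05 over all transcripts in edgeR's quasi-likelihood test and a log2 change of at least 1. The fitted log2 change was above 0 in 10 of 10, with a median of 6.02, or 5.94 when computed from mean CPM with groups without counts set to the floor. Over all transcripts the median was -0.08. In 7 of the 10 the lowest 24 h library lay above the highest 2 h library, beside 19.4% of all transcripts. The 10 include only transcripts high at 48 h, which follows 24 h, and under 0.1 CPM at 0 h, which 2 h follows. The shares, higher and lower, are therefore not independent of how the 10 were chosen. Mean levels of the 10 at 2 h ran from 0 to 0.561 CPM, which left little room for a lower call. In addition, TRINITY_DN13250_c0_g1_i1_8 and TRINITY_DN12740_c0_g2_i4_7, each with 24 h counts in only 1 library, passed the filter through the 48 h libraries. Their signs are therefore not free of the choice. Leaving out single libraries gave 6 to 8 called transcripts, beside 5% to 8.38% of all. The 8 came without the library labelled 2 h replicate 2 (7.42% of all).

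The calls fell unevenly over the shorter steps, in none of which one of the 10 was called lower (background 0.613%, 0.329% and 2.83% in order of time). In the steps from 2 h and from 6 h, levels near 0 left little room for a lower call. From 2 h to 6 h edgeR called 0 of 10 higher, beside 1.58% of all transcripts. At an unadjusted p under 0.05 there was 1 higher and 1 lower. Neither DESeq2 nor limma called any, while 4.54% of all were called higher with DESeq2 and 1.57% and 1.35% with limma. From 6 h to 12 h the only call was TRINITY_DN4268_c0_g1_i1_7 (edgeR adjusted p = 0.028), beside 0.117% of all transcripts, on 1 count at 6 h and 66 at 12 h. That call was lost when any 1 library of 6 h, or replicate 1 or 2 of 12 h, was left out, and without 6 h replicate 2 the 1 call was TRINITY_DN16846_c1_g1_i10_7 instead. From 12 h to 24 h 3 were called higher, beside 1.82%, namely TRINITY_DN16846_c1_g1_i10_7, TRINITY_DN4268_c0_g1_i1_7 and TRINITY_DN14620_c0_g1_i1_6. The steps share libraries and differ in hours, and whether one step exceeded another was not tested.

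**Figure D2:**
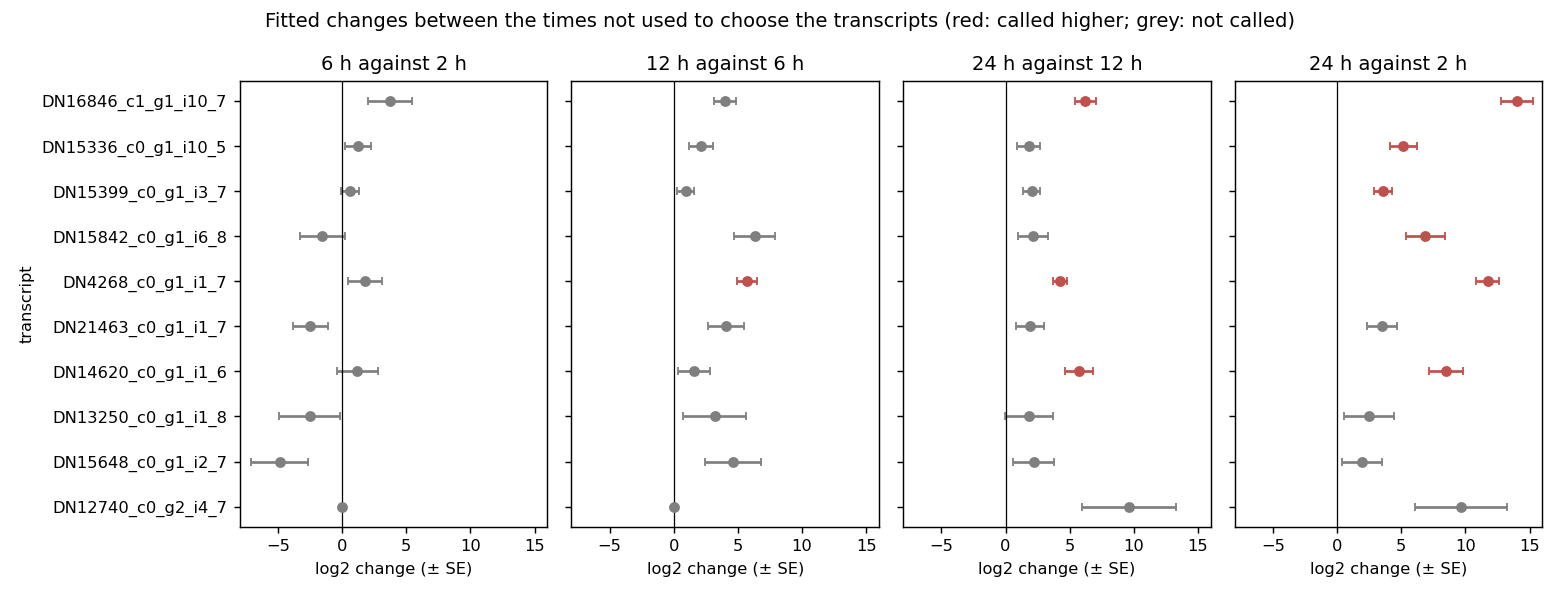
Fitted log2 change with its SE (horizontal axis) for each of the 10 transcripts (vertical axis) in the 4 comparisons of times between 2 h and 24 h, red where called higher. From 2 h to 24 h 6 points are red and all lie above 0; changes of transcripts with 3 or fewer counts at the earlier time depend on the prior count of the fit, and 2 points at 0 without an SE belong to a transcript without counts at either time.

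The mean at 48 h was above that at 24 h in 10 of 10, by ratios of 1.19 to 185, the highest being TRINITY_DN13250_c0_g1_i1_8 on its 9 counts at 24 h. In 6 of the 10 every 48 h library was above every 24 h library. The shares of all transcripts that did so were not computed, so neither count is read as particular to the 10. Of the 33 transcripts just outside the limits, described below, 29 also had a higher mean at 48 h than at 24 h. The 48 h libraries chose the transcripts, so no test was made of this step.

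The choice of thresholds set how many transcripts were found. Of the transcripts tested, 1387 were under 0.1 CPM in each 0 h library, and 11886 had at least 10 CPM in each 48 h library. Just inside the limits, the lowest 48 h value of a member was 11.1 CPM and the highest 0 h value 0.0817 CPM. Just outside, 7 transcripts below 0.1 CPM at 0 h reached 5 to 10 CPM in their lowest 48 h library, the nearest at 9.43 CPM. Another 26 passed the 48 h limit with a highest 0 h level of 0.1 to 0.5 CPM, the nearest 2 at 0.120 CPM. The cap on the mean removed 0 transcripts. The same rule put to earlier times, at least 10 CPM in each library and under 0.1 CPM at 0 h, found 0 transcripts for each of 2 h, 6 h and 12 h, and 7 for 24 h, of which 4 are among the 10. With 0 h and 48 h exchanged, 1 transcript met the rule. The exchanged rule is stricter, since 1 count corresponded to 0.0555 and 0.0533 CPM in 48 h replicates 1 and 2. The limit of 0.1 CPM thus allowed at most 1 count there, so the 2 numbers are not on equal terms.

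**Figure D3:**
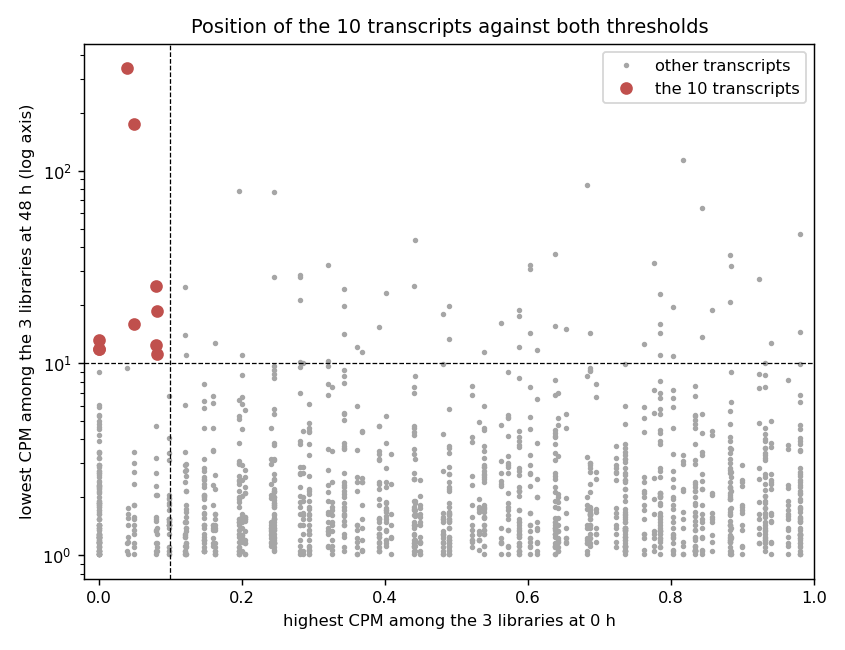
Highest CPM among the 3 libraries at 0 h (horizontal axis) against lowest CPM among the 3 at 48 h (vertical axis, logarithmic) for transcripts under 1 CPM at 0 h and at least 1 CPM at 48 h. Dashed lines mark 0.1 and 10 CPM; the 10 transcripts, in red and partly overlapping, fill the upper left, with 2 of them far above the rest.

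Whether another isoform of the same gene was present at 0 h could not be read from the IDs. Of 30204 combinations of DN, c and g numbers, 14518 had more than 1 transcript, but 0 had 2 with the same final digit, for the 10 as for all others. Transcripts that shared all 3 numbers and differed in the digit had a median Spearman correlation over the 18 libraries of 0.01 in 8348 pairs, so transcripts were not linked across digits. Those that shared DN and c numbers and the digit, but not g, had a median of 0.44 in 368 pairs. Transcripts of 1 digit tend to be highest in the same libraries, and pairs of the same digit with other DN numbers were not compared.

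For 2 of the 10, another transcript with the same DN and c numbers and the same digit was measured. TRINITY_DN12740_c0_g1_i2_7, of 799 nucleotides, shares a component with TRINITY_DN12740_c0_g2_i4_7 and missed the 48 h limit. It had no count in the libraries from 0 h to 12 h or in replicates 1 and 2 at 24 h. It stood at 5.92 CPM in replicate 3 at 24 h and at 5.32, 5.76 and 8.68 CPM at 48 h, so that both were detected in the same 4 libraries and in no other. By contrast TRINITY_DN16846_c1_g3_i1_7, of 891 nucleotides, from the component of TRINITY_DN16846_c1_g1_i10_7, was present throughout. Its mean was 3.90 CPM in the 0 h libraries, 2.55 CPM at 12 h, and 4.96 and 4.97 CPM in the last 2 times.

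The final digit of the ID was unevenly represented among the 10. The digit 7 was carried by 6 of them and by 10.4% of the transcripts tested, and the digit 8 by 2 and by 9.78%, while 5 and 6 were carried by 1 each. The digits 1 to 4 and 9 were carried by 0. Each digit went with particular libraries: among transcripts of at least 1 CPM, the 2 libraries most over-represented as the highest were 48 h replicates 1 and 2 for digit 7, and 48 h replicate 3 and 2 h replicate 1 for digit 8. The 2 libraries found in this way for each of the 9 digits were all different, 18 in all. Of the transcripts with digit 7, 54.6% were highest in a 48 h library, against 21.3% of all. Of the 33 transcripts just outside the limits, 24 had the digit 7 or 8 and 0 had 1 to 4 or 9. The digit and the choice of the 10 rest on the same libraries, so this is a description, and its part in the result was not tested.

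**Figure D4:**
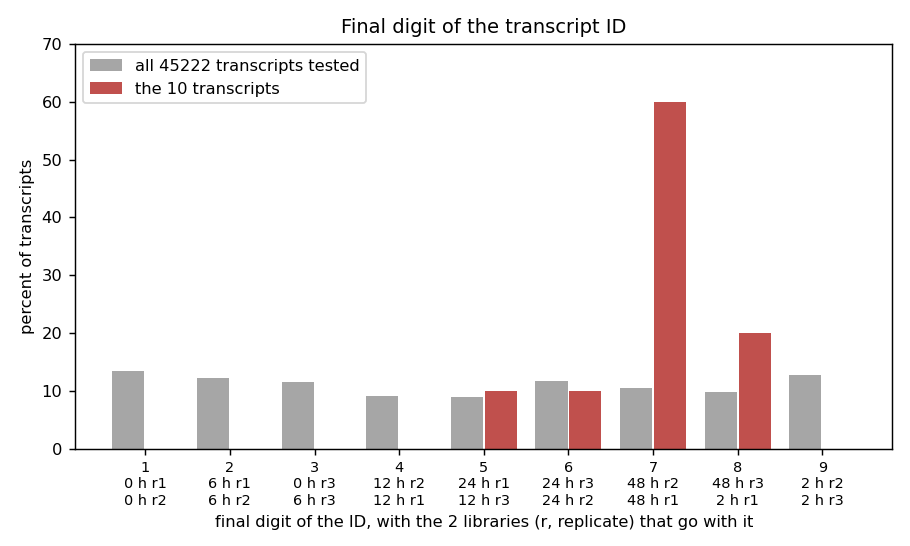
Share of transcripts in percent (vertical axis) by the final digit of the ID (horizontal axis), for all transcripts tested (grey) and for the 10 (red). Under each digit stand the 2 libraries most over-represented, relative to all transcripts of at least 1 CPM, as the library where its transcripts were highest. Of the 10, 8 carry 7 or 8, and none carries 1 to 4 or 9.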

How the data were processed

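RNA of 18 leaf libraries was analysed, grouped by the labelled time. The deposited estimated counts (89.6% not whole) were not scaled by the authors, as far as the values show. The authors also deposited FPKM values. Per the file headers and IDs, features are Trinity transcripts; what aligned and counted the reads is not given in the sources used here. Of the per-sample columns, 0 were left unused. The deposited names, which may have been joined from another assembly, were not used.

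Estimated counts were rounded, filtered with filterByExpr by time, and scaled by TMM to CPM. The 12 libraries of 2 h to 24 h were fitted with edgeR 4.0.16 (R 4.3.3; common dispersion 0.236), with Benjamini-Hochberg adjustment over all 45222 transcripts, and the SE was the log2 change over the square root of F. The fit was tested on simulated data. Alternatives used DESeq2 1.42.0, limma 3.58.1 (log2 of FPKM plus 1 or plus 0.1, no TMM), other filters, thresholds and library sets. Intervals (95%) and floors (3 counts) cover counting error only. Length is count over FPKM, whole to within 0.1 nucleotides in 99.98% of features. Figures used matplotlib 3.10.9.

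Within each class of first presence, the rule for named features takes the 2 with the highest mean CPM at 48 h. Members, lists and tests were chosen with earlier results of these data known. Replicate pairs differed beyond sampling noise, the lowest chi-square being 11.8 per degree of freedom.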

Additional observations from a re-analysis of the deposited data

How the results depend on the processing

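The count of transcripts called from 2 h to 24 h was 4 to 8 over 18 alternatives, and that from 2 h to 6 h was 0 in each of 18. Of all transcripts tested, 4.18% to 13.3% were called higher in the first comparison and 0.0641% to 5.05% in the second. The 4 came with at least 10 CPM in 3 libraries, which left 4 of the 10 to test (13.3% of all called higher). From 6 h to 12 h, where 1 was called, the count was 2 with that filter (0.891% of all) and 2 with all 18 libraries (0.0663%). It was 3 with the DESeq2 test (1.41%) and 0 with only the 6 libraries compared (0.0531%). With limma on log2(FPKM + 1) it was 0 (0.258%), and without single libraries 0 to 1 (0.0133% to 0.126%). From 12 h to 24 h, where 3 were called, limma on log2(FPKM + 1) called 5 (2.13% of all). Leaving out single libraries gave 2 to 3 in that step (0.261% to 2.21%). The cause of these shifts was not tested. With the replicate block 8 were called over the whole span (6.33% of all). It gave 0 between 6 h and 12 h (0.031%) and 3 in the last step (1.05%). No pairing by replicate number was seen in the values, where only 3 of 18 same-numbered pairs correlated above 0.1, but this cannot exclude one. Of 12 libraries, 3 matched best with their own number.

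The rule found 10 transcripts with DESeq2 size factors, 7 with library totals, 3 with no count allowed at 0 h, 36 with under 0.5 CPM there, 17 with at least 5 CPM at 48 h and 3 with at least 20 CPM. Leaving out single libraries gave 10 to 19: 18 when 0 h replicate 2 was dropped, 17 for 0 h replicate 3 and 19 for 48 h replicate 3. Because the limits apply to each library, dropping a library relaxes the rule, and a lower number was not to be had this way. Without 0 h replicate 2 and 2 h replicate 2 together, chosen after seeing the data, the number was 18. In the rule 2 h replicate 2 entered the mean, the filter on low counts and the scaling, but neither threshold. The filter and the scaling were not redone without it. With presence set at 5 CPM, 0 were first present at 12 h, with 5 for 24 h and 5 for 48 h. The log2 change of TRINITY_DN13250_c0_g1_i1_8 from 2 h to 24 h ranged from -2.56 to 4.99 without single libraries, and reversed without 24 h replicate 2, the library with all its 24 h counts. Depth limits absence at 0 h to 0.120 to 0.147 CPM per library.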

Other observations

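At 24 h, 3 transcripts outside the 10 met the same limits and then stood lower at 48 h; they were singled out after their values were seen. TRINITY_DN12861_c0_g1_i1_6 stood at 19.7, 28.5 and 18.0 CPM at 24 h and at 7.04, 9.01 and 1.54 CPM at 48 h. TRINITY_DN22911_c0_g1_i1_6 went from 11.2, 11.7 and 11.9 CPM to 7.54, 4.32 and 3.21 CPM. TRINITY_DN15579_c0_g1_i14_6 stood at 13.4, 16.2 and 23.3 CPM at 24 h and at 11.8, 11.8 and 2.69 CPM at 48 h. In each of the 3, every 48 h library was below every 24 h library. The 24 h values chose the 3 transcripts, and to be outside the 10 each had to be under 10 CPM in some 48 h library. A lower level at 48 h is thus partly built in, and these differences were not tested.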
